A study of Homo sapiens with 47 samples.

Results

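The 10 genes followed here in single circulating tumor cells (CTC) encode surface proteins through which immune effectors recognize or spare a tumor cell. They are the checkpoint ligand CD274, the phagocytosis signal CD47, the complement regulators CD55, CD46 and CD59, and the natural killer (NK) cell ligands PVR, NECTIN2, ULBP2, MICA and MICB. The genes were chosen by name, and all 10 were found among the 25739 genes with values. LM2 is an established human triple-negative breast cancer line derived from MDA-MB-231, carried here with GFP, and it was implanted in the mammary gland of NSG (NOD/SCID gamma) mice aged 6 to 8 weeks. CTCs were enriched from the whole blood by size, kept when negative for CD45, and picked one by one by their GFP. Values were analyzed for 37 CTCs, namely 2 of mouse 5541, 4 of mouse 5542, 10 of mouse 5545, 17 of mouse 5546 and 4 of mouse 5549. They were set beside 6 LM2 cells grown in culture. The culture cells were not taken from a mouse in this study, and no tumor cells of the mice that gave the CTCs were used here. The effect of growth in the animal and that of the blood therefore cannot be told apart. The CTCs were also enriched and stained before picking, and the paper does not say whether the cultured cells were. An effect of this handling cannot be told apart from the others either.

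PD-L1, the product of CD274, binds PD-1 on T cells and dampens them. CD47 binds SIRP-alpha on macrophages and holds back phagocytosis. CD55 (decay-accelerating factor) takes apart the C3 convertases, CD46 is a cofactor for the cleavage of C3b and C4b, and CD59 blocks the assembly of the membrane attack complex. PVR and NECTIN2 are read by the activating receptor DNAM-1 and also by the inhibitory receptor TIGIT, and ULBP2, MICA and MICB, which stressed and transformed cells show, are read by the activating receptor NKG2D. NSG mice lack mature T, B and NK cells and the complement component C5, while the SIRP-alpha of the NOD strain binds human CD47. Macrophages and neutrophils remain in this host.

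Each cell gave 1 library of full-length cDNA. The CTCs had 469614 to 2041333 reads on genes (median 1257540) and the cultured cells 776949 to 1186197 (median 911310). Genes detected ran from 2227 to 11010 in the CTCs (median 7353) and from 7226 to 12271 in the cultured cells (median 9768.5). The authors divided the reads of each gene by a size factor of the cell, and these normalized counts are used here unless another scale is named. The batch field of the labels holds the same entry for all libraries. VIM, KRT8, KRT18 and CD44, which mark this line, had reads in 37 of 37 CTCs, and EGFR, the last marker of this list, in 33, with a median of 19.1 against 117 in culture. The 4 CTCs with fewer than 5000 genes detected were 5545-6, 5546-s5, 5546-s7 and 5546-s9, named by mouse and cell. A cell without a read of a gene may still hold its mRNA, and fewer transcripts per cell cannot be told from a lower capture of RNA.

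**Figure D1:**
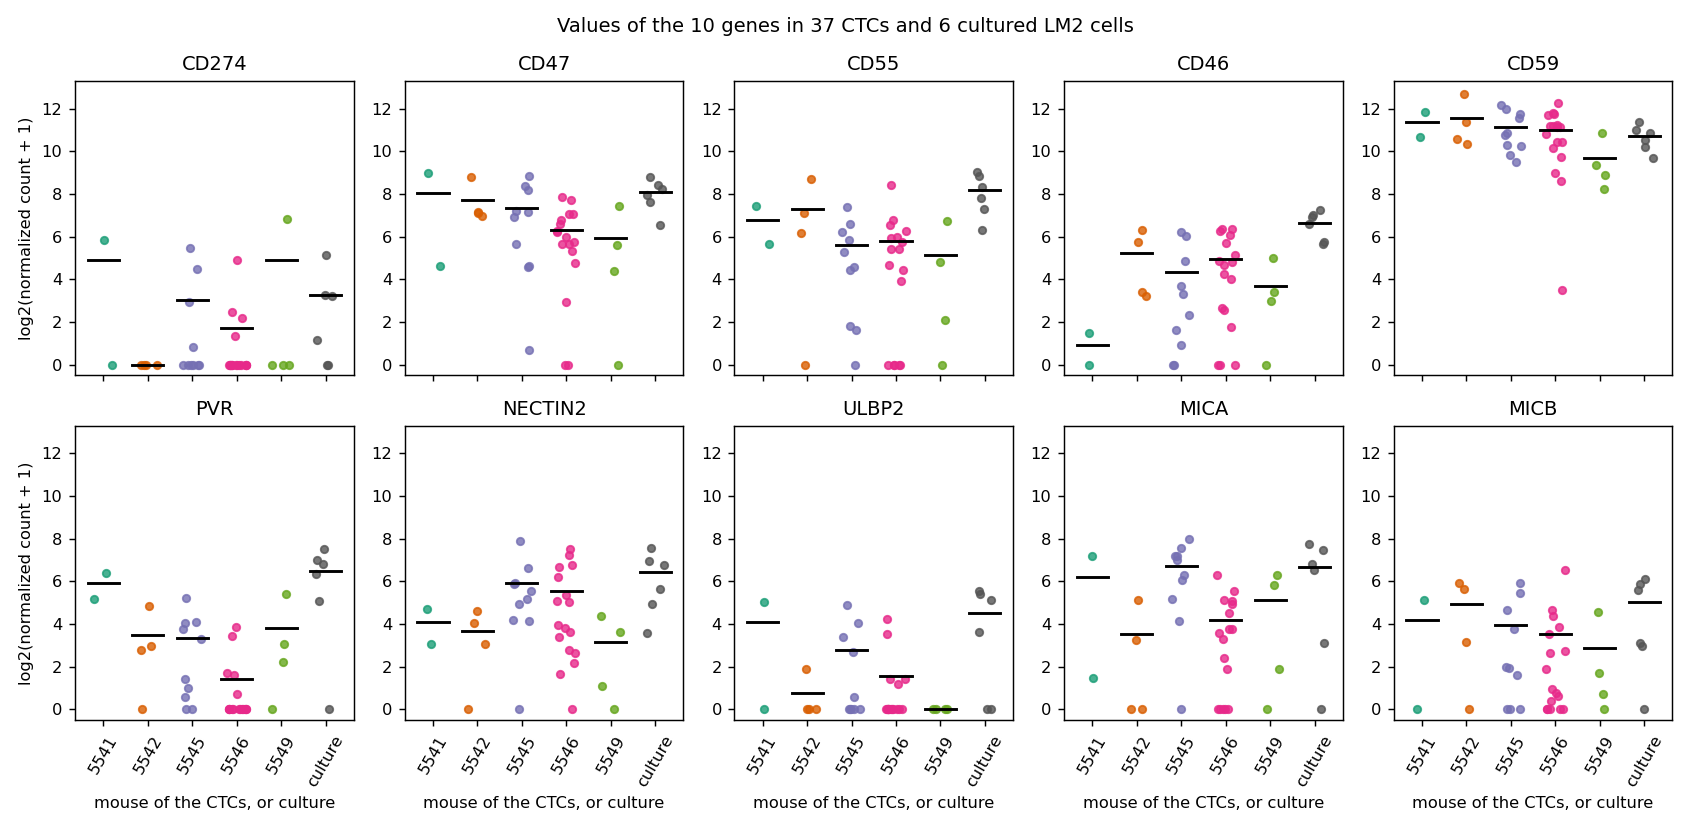
Values of the 10 genes. Each point is 1 cell, the vertical axis is log2(normalized count + 1), the horizontal axis gives the mouse of the CTCs or the culture, and the black bar is the group mean on the same scale. CD59 had the most counts in nearly every cell, while CD274, PVR and ULBP2 were at 0 in many CTCs.

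Detection differed widely among the 10 genes. CD59 was detected, that is had a value above 0, in 37 of 37 CTCs, CD47 in 34, NECTIN2 in 33, CD46 in 30, CD55 in 29, MICA in 28, MICB in 26, PVR in 21, ULBP2 in 12 and CD274 in 10. The median share over the genes was 77.0% of CTCs, and it was 62.2% when a normalized count of at least 8 was required. At that threshold PVR was left in 11 CTCs, MICB in 13, ULBP2 in 6 and CD274 in 5, while CD59 stayed in 37 and CD47 in 32. The 10 CTCs with CD274 made up 27.0% of all CTCs, with an exact 95% binomial interval from 13.8% to 44.1%. The 12 with ULBP2 made up 32.4%, with an interval from 18.0% to 49.8%. These intervals cover counting error only, because reads carry no molecular identifiers and CTCs of 1 mouse are not independent. Thinning to 1 depth moved the numbers less. After each cell was thinned to 469614 reads, CD274 was still found in 9 CTCs, ULBP2 in 9, PVR in 19, CD46 in 27 and MICB in 23, and the other 5 genes in as many as before.

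**Figure D2:**
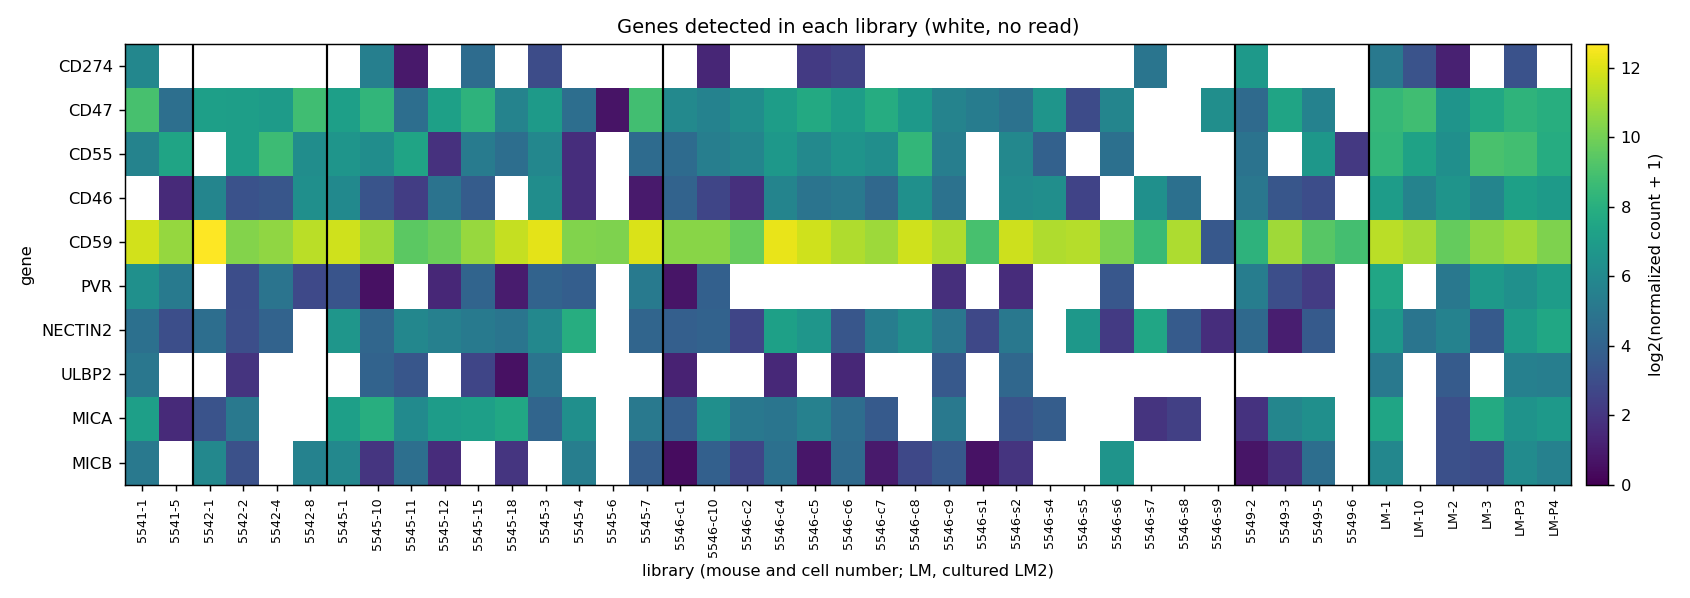
Detection of the 10 genes cell by cell. Columns are the 37 CTCs, grouped by mouse between black lines, and the 6 cultured LM2 cells at the right; color gives log2(normalized count + 1), and white marks no read. The CD59 row has no white field, and the white fields gather in CTCs 5545-6, 5549-6 and several of the 5546 libraries with the letter s.

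To compare the genes with each other, normalized counts were divided by the length of their exons. CD59 led with a mean of 200 per kb over the CTCs. CD47 followed with 15.0, MICA with 11.7, NECTIN2 with 10.8, CD55 with 6.33 and MICB with 4.85 per kb, and ULBP2 with 2.59, CD274 with 1.86, CD46 with 1.59 and PVR with 0.859 per kb were lowest. The gap below CD59 was the only one wider than the spread between mice. The lowest mouse mean of CD59, 77.8 per kb in mouse 5549, exceeded the highest of CD47, 32.3 per kb in mouse 5541. All other neighbors in the order overlapped in their mouse means, and only 3 of the 10 genes held the same place when the longest transcript was taken as the length, or 4 when medians were used. CD59 was first and MICB sixth each time. In the cultured cells CD59 also led with 159 per kb, CD47 came next with 33 and CD55 after it with 28.8, and CD274 was last with 2.11 per kb.

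**Figure D3:**
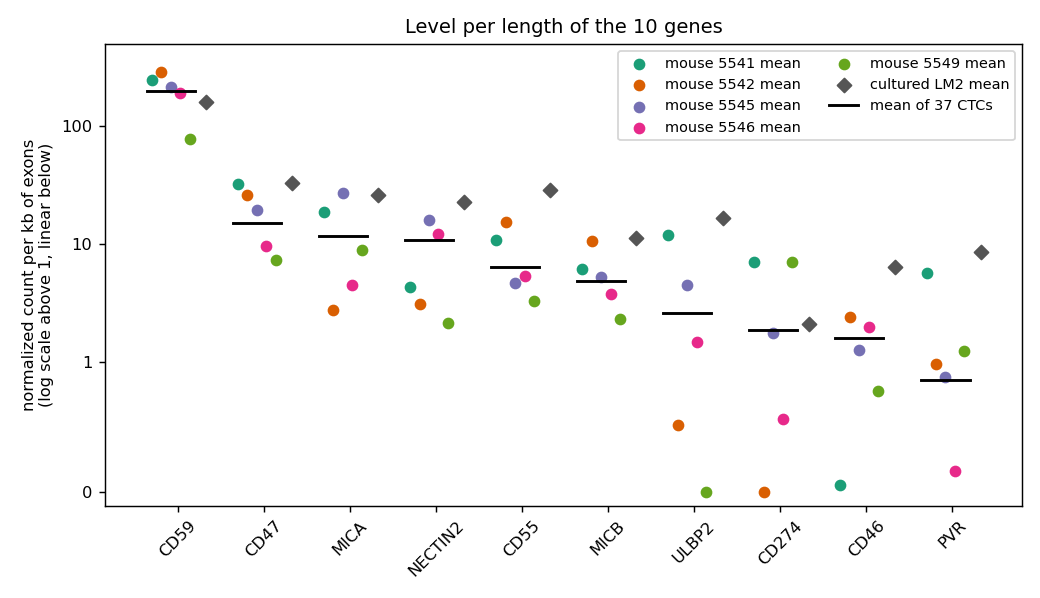
Level per length. The vertical axis is the normalized count per kb of exons, logarithmic above 1 and linear below; circles are the mean of each mouse, bars the mean of the 37 CTCs, and diamonds the mean of the 6 cultured cells. CD59 at 200 per kb stood apart, and from CD47 downward each gene overlapped with the next in its mouse means.

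CD59 (chromosome 11, 33703010 to 33736479, GRCh38, minus strand) was the only gene of the 10 with reads in every CTC. The 2 CTCs of mouse 5541 had normalized counts of 3627 and 1623, the 4 of mouse 5542 had 6602, 1292, 1534 and 2696, and the 4 of mouse 5549 had 296, 1859, 663 and 468. In mouse 5545 the values ran from 726 to 4624 with a median of 1793, and in mouse 5546 from 10.2 to 4971 with a median of 2250. The cultured cells lay between 827 and 2670 with a median of 1672. In normalized counts the CTCs thus spread across and beyond the culture on both sides, with 11 CTCs above its highest cell and 7 below its lowest. Such counts of cells, here and for the genes below, can change with the scale. The log2 ratio of CTCs to culture, defined below, was 0.36 for CD59 in normalized counts. Relative to all reads on genes of the cell it was 1.09. The median gene was at -1.02 and -0.32 on these scales. In mouse 5549, 3 of the 4 CTCs were below the lowest cultured cell and the other was above the culture median, and the single CTC near the floor was 5546-s9, with 19 reads of CD59 and 4225 genes detected.

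CD55 (chromosome 1, 207321519 to 207386804, plus strand), which like CD59 is held in the membrane by a GPI anchor, had fewer reads per kb than CD59 and was missing from 8 CTCs. Normalized counts were 49.5 and 171 in the CTCs of mouse 5541, 0, 138, 418 and 72.4 in mouse 5542, and 27.5, 0, 104 and 3.33 in mouse 5549. Mouse 5545 ran from 0 to 168 with a median of 30.2 and mouse 5546 from 0 to 338 with a median of 42.1, against 79.0 to 521 with a median of 277 in the cultured cells. No CTC exceeded the highest cultured cell, 28 of 37 fell below the lowest, and all 5 mouse means, from 33.8 to 157, were below the culture mean of 295.

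CD46 (chromosome 1, 207752037 to 207795513, plus strand), which spans the membrane and shares its chromosome arm with CD55, gave a like picture. Mouse 5541 had 0 and 1.81, mouse 5542 had 53.1, 8.30, 9.56 and 77.8, and mouse 5549 had 31.5, 9.53, 6.97 and 0. The values of mouse 5545 ran from 0 to 73.9 with a median of 6.48 and those of mouse 5546 from 0 to 81.6 with a median of 24.5, whereas the cultured cells ran from 49.998 to 149.6 with a median of 108. Here too no CTC was above the highest cultured cell and 28 of 37 were below the lowest. The Spearman correlation of CD55 with CD46 over 37 CTCs was 0.24, and 0.08 after thinning to 1 depth. Such correlations across cells share libraries, mice and depth, and are given as descriptions.

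Since all 3 regulators were counted in the same cell, the share of each among their summed reads does not depend on the size factor. This measure was chosen after the values were seen. CD59 took 94.5% of the reads of the trio in mouse 5541, 90.5% in mouse 5542, 96.2% in mouse 5545, 95.9% in mouse 5546 and 91.9% in mouse 5549, which gives 93.8% ± 2.51 (SD, n = 5 mice). In the culture it took 80.6% on average and from 72.2% to 90.9% in single cells. All 5 mouse means were above the culture mean, and 29 of 37 CTCs were above its highest cell, while the remaining 8 CTCs lay within the range of the cultured cells. A share of 100% was found in 5545-6, 5546-s1 and 5546-s9, which had no read of CD55 or CD46. The trio had only 19 reads in 5546-s9. Dropout of the 2 rarer genes raises the CD59 share of a cell. Without the CTCs under 5000 genes the mean of the mouse means was 93.8%. CD55 took 4.9% ± 2.44 and CD46 1.30% ± 0.98 (SD, n = 5 mice) in the CTCs, against 14.0% and 5.39% in the culture. Counted per kb of the longest transcript, the share of CD59 was from 84.3% to 93.9% in the mice and 70.9% in the culture. The difference in shares was not tested.

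**Figure D4:**
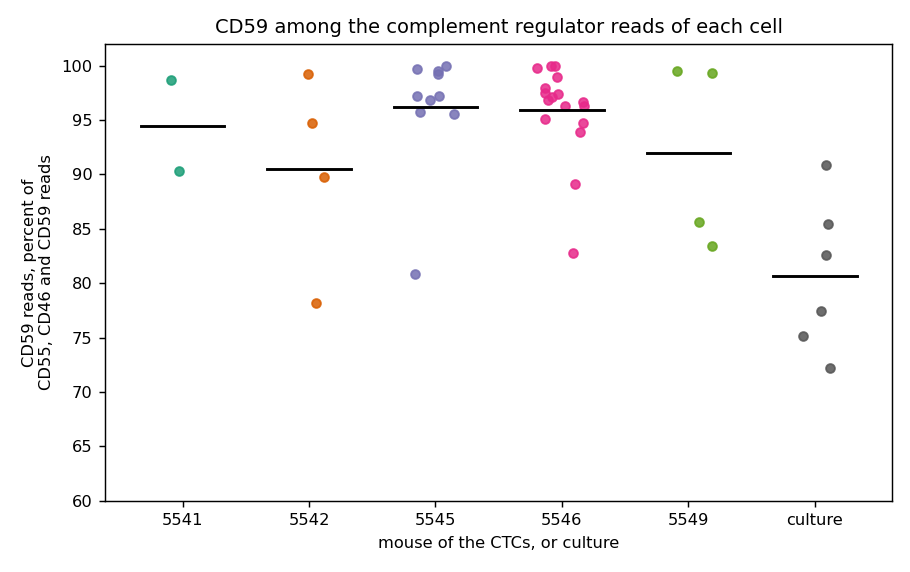
CD59 among the complement regulators. The vertical axis, which starts at 60%, is the percent of the summed CD55, CD46 and CD59 reads of a cell that fell on CD59; points are cells, bars the mean of each mouse or of the culture. The mouse means lay from 90.5% to 96.2% and the culture mean at 80.6%.

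CD47 (chromosome 3, 108043091 to 108091862, minus strand) was carried by most CTCs at levels that varied strongly. Normalized counts were 509 and 23.5 in mouse 5541, 143, 139, 124 and 445 in mouse 5542, and 20.1, 170, 48.3 and 0 in mouse 5549. In mouse 5545 they ran from 0.587 to 466 with a median of 131 and in mouse 5546 from 0 to 232 with a median of 62.9. The cultured cells had 92.8 to 447 with a median of 276. The range of the CTCs overlapped that of the culture in every mouse. In normalized counts, 2 CTCs were above the highest cultured cell and 19 below the lowest. The log2 ratio of CD47 to culture was -0.80 on this scale, where the median gene was at -1.02. Relative to all reads on genes of the cell it was -0.03, with 3 mice below the culture and 2 above. The 19 CTCs therefore do not set CD47 apart from other genes. The CTCs without a read of CD47 were 5546-s7, 5546-s8 and 5549-6, with 4728, 5926 and 5202 genes detected.

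CD47 and the 3 complement regulators were detected together in 25 of 37 CTCs, or 67.6% with an exact 95% interval from 50.2% to 82.0%, and in 6 of 6 cultured cells. At 1 depth it was 22 CTCs and again 6 cultured cells. Every CTC that had CD55, CD46 and CD59 also had CD47. Reads of neither CD55 nor CD46 were found in 3 CTCs, 5545-6, 5546-s1 and 5546-s9, which had 2227, 6025 and 4225 genes detected. Without the 4 CTCs under 5000 genes the full set was present in 25 of 33. Without mouse 5546 it was present in 14 of 20.

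CD274 (chromosome 9, 5450503 to 5470566, plus strand) was sparse. Among the CTCs of mouse 5541 it was 57.4 in 5541-1 and 0 in 5541-5, in mouse 5542 it was 0 in all 4, which allows a share of CTCs with a read of up to 60.2% (exact 95% binomial limit), and in mouse 5549 it was 115 in 5549-2 and 0 in the other 3. Mouse 5545 had values above 0 in 4 of 10 CTCs, up to 43.3, and mouse 5546 in 4 of 17, up to 29.5. The cultured cells had it in 4 of 6, from 0 to 33.8 with a median of 4.78. The 3 CTCs that exceeded every cultured cell, 5549-2, 5541-1 and 5545-10, came from 3 mice and held 76.0% of all CD274 in the CTCs, and without 5549-2 the mean over CTCs was 4.69 in place of 7.66. CD47 was also detected in 9 of the 10 CTCs with CD274, and the full set of CD47, CD55, CD46 and CD59 in 8.

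The genes whose values followed CD274 most closely over the 37 CTCs, among 7014 genes detected in at least 50% of them, were DDX60L with a Spearman correlation of 0.74, OSMR with 0.59 and CALCOCO2 with 0.53. DDX60L is an interferon-induced helicase, OSMR is the receptor chain for oncostatin M, and CALCOCO2 is an autophagy receptor. These 3 remained the first 3 after thinning, with 0.71, 0.57 and 0.61. For CD47 the first 3 were ME3 with 0.66, APEX2 with 0.66 and ANTXR2 with 0.66, and none of them was among the first 3 after thinning. CD274 was above 0 in only 10 of these cells, so its correlations rest mainly on which cells have a read. For CD274 and for CD47 the 3 genes were picked as the highest of all genes compared. High values can then arise by chance, which was not tested, and thinning reuses the same cells.

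Of the ligands of DNAM-1, NECTIN2 was detected in 89.2% of CTCs and PVR in 56.8%, and without mouse 5546 in 85% and 80.0%. NECTIN2 (chromosome 19, 44846175 to 44889223, plus strand) had normalized counts of 24.8 and 7.25 in mouse 5541, 23.4, 7.38, 15.7 and 0 in mouse 5542, and 19.4, 1.12, 11.1 and 0 in mouse 5549. It reached 240 in mouse 5545 and 180 in mouse 5546, whose medians were 40.3 and 14.6. The cultured cells had 10.9 to 187 with a median of 79.2. All cultured cells and 33 of 37 CTCs had reads, and 12 CTCs were below the lowest cultured cell.

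PVR (chromosome 19, 44643798 to 44666162, plus strand), the poliovirus receptor, was 82.1 and 35.6 in the CTCs of mouse 5541, 0, 6.92, 28.0 and 5.94 in mouse 5542, and 40.9, 7.29, 3.72 and 0 in mouse 5549. It ran up to 36.3 with a median of 5.20 in mouse 5545, and was detected in only 5 of 17 CTCs of mouse 5546, up to 13.6. In culture it was found in 5 of 6 cells, with a highest value of 183 and a median of 96.4. No CTC exceeded the highest cultured cell, and mouse 5541 stood above the other mice. NECTIN2 and PVR were found together in 20 CTCs, NECTIN2 alone in 13, of which 11 were of mouse 5546, PVR alone in 1 and neither in 3.

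Of the ligands of NKG2D, MICA (chromosome 6, 31399784 to 31415315, plus strand) was highest in mouse 5545. Mouse 5541 had 143 and 1.81, mouse 5542 had 8.50, 33.7, 0 and 0, and mouse 5549 had 2.68, 56.1, 77.6 and 0. In mouse 5545 the values ran from 0 to 251 with a median of 103, close to the culture median of 101, and in mouse 5546 from 0 to 78.5 with a median of 11.0. Thus 9 of 10 CTCs of mouse 5545 and 12 of 17 of mouse 5546 had reads of MICA, and the mouse means were 105 and 17.3. The cultured cells ran from 0 to 216, so that they covered the CTCs except 5545-10 at 251.

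MICB (chromosome 6, 31494881 to 31511124, plus strand), the neighbor and relative of MICA, had 34.3 and 0 in mouse 5541, 60.5, 7.84, 0 and 49.2 in mouse 5542, and 0.670, 2.24, 22.8 and 0 in mouse 5549. Its median was 2.88 in mouse 5545, 0.914 in mouse 5546 and 27.2 in culture, and the highest CTC had 92.3 and the highest cultured cell 68.9. The CTCs and the cultured cells overlapped in every mouse. MICA and MICB were found together in 22 CTCs, MICA alone in 6, MICB alone in 4 and neither in 5. Their Spearman correlation over the 37 CTCs was 0.37.

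ULBP2 (chromosome 6, 149942014 to 149949235, plus strand), a GPI-anchored ligand, was found in 1 of 2 CTCs of mouse 5541 at 32.1, in 1 of 4 of mouse 5542 at 2.77, and in none of the 4 of mouse 5549. In mouse 5545 it was found in 5 of 10 CTCs, up to 28.7, and in mouse 5546 in 5 of 17, up to 17.9. The culture had it in 4 of 6 cells, up to 45.1 with a median of 22.6. All CTC values were below the highest cultured cell.

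Cell by cell, 7 CTCs had reads of all 5 NK ligands and 2 had reads of none, 5545-6 and 5549-6. The latter are 5.41% of the CTCs, with an exact 95% interval from 0.661% to 18.2%. Without the CTCs under 5000 genes, 1 of 33 was left, and when a normalized count of at least 8 was required, 4 CTCs had none. No ligand of NKG2D was found in 5 CTCs and no ligand of DNAM-1 in 3. In culture 4 of 6 cells had all 5 ligands and none lacked all of them.

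The number of the 10 genes found in 1 cell ran from 2 to 10 in the CTCs with a median of 8, and from 6 to 10 in the cultured cells with a median of 9.5. A single CTC, 5545-10, had all 10, with 1 read of PVR, against 3 of 6 cultured cells. At 1 depth this CTC had 8 of them, and 2 cultured cells had all 10. The cultured cells also had more genes detected, with a median of 9768.5 against 7353 in the CTCs. The part of this in the detection of the 10 genes was not tested. Over 37 CTCs, the Spearman correlation of the number of the 10 genes found with all genes detected in the cell was 0.58. It was 0.85 over the 17 of mouse 5546 and 0.14 over the 10 of mouse 5545. The libraries of mouse 5546 fell into sets that did not overlap in genes detected, described below. A difference between mice was not tested. Between the 10 genes, 41 of the 45 pairwise correlations over CTCs were above 0, with a median of 0.22 and a highest value of 0.52 for CD47 with CD59. No pair was strongly opposed, and the lowest value was -0.13.

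The libraries of mouse 5546 carry either the letter c or the letter s in their names, and the letters are not explained. The 9 with c had 7438 to 11010 genes detected and the 8 with s had 4225 to 6942, so the sets did not overlap. The full set of CD47, CD55, CD46 and CD59 was found in 9 of 9 with c and 2 of 8 with s, and the same numbers were found at 1 depth. The median of CD55 was 62.3 with c and 0 with s, that of CD47 was 111 and 32.7, that of MICA 29.2 and 1.37, and that of CD59 2293 and 1699. Of the 12 CTCs that lacked a gene of the set, 6 were thus s libraries, and the part that the letter and the genes detected play was not tested.

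The CTCs were next set against the culture gene by gene. The culture is 1 sample and cells are not replicates, so a rule of size was used in place of a test. It asks that all 5 mouse means lie 4-fold or more to the same side of the culture mean, with 1 added to each, and that the larger mean reach 8. None of the 10 genes was higher by this rule, which 0.0574% of 10455 genes were, and none was lower, which 4.66% of them were. The scale matters here, because the median log2 ratio of CTCs to culture over these genes was -1.02 in normalized counts and -0.32 in reads per 1000000 reads on genes (RPM). All 5 mouse means were below the culture mean for 7 of the 10 genes in normalized counts, against 52.9% of all genes, and for 2 in RPM, CD55 and CD46, against 30.8%. All 5 were above it for 0 of the 10 on both scales, against 1.16% of all genes in normalized counts and 4.54% in RPM.

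Relative to the median gene, CD274 and CD59 stood highest and CD46, PVR, ULBP2 and CD55 lowest on both scales. Each log2 ratio here and below is that of the mean of the mouse means to the culture mean. The SD beside it is that of the log2 ratios of the single mice, whose own mean can differ from the ratio given. The log2 ratio of CD59 was 0.36 ± 0.74 (SD over 5 mice) in normalized counts and 1.09 ± 0.64 in RPM, and it was higher than culture in 4 of 5 mice on both. That is 1.38 and 1.41 above the median gene. The log2 ratio of CD274 was 0.57 ± 2.11 in normalized counts and 1.57 ± 2.22 in RPM. Yet 3 of the 5 mice were below the culture in normalized counts, and 2 in RPM. In normalized counts the ratio turned to -0.16 when all CTCs were averaged with equal weight. Without the cultured cell LM-1, which had 33.8 of CD274, it was 1.63 in normalized counts.

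CD46 had -2.26 ± 1.73 and CD55 -1.85 ± 0.90 in normalized counts, and -1.52 ± 1.81 and -1.20 ± 0.82 in RPM. Relative to the median gene in normalized counts, CD46 was at -1.24 and CD55 at -0.83. PVR had -2.20 ± 1.596 in normalized counts, and 4 of the 5 mice were at least 4-fold below culture. Mouse 5541 was the exception, and without it PVR met the rule, as did 6.12% of 10214 genes. In RPM this mouse was above the culture. ULBP2 had -1.96 ± 1.63 and NECTIN2 -1.55 ± 1.21 in normalized counts. CD47 with -0.80 ± 0.92, MICA with -1.05 ± 1.33 and MICB with -0.96 ± 0.76 were at 0.22, -0.03 and 0.06 relative to the median gene, and in RPM their log2 ratios were -0.03, -0.23 and -0.22.

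**Figure D5:**
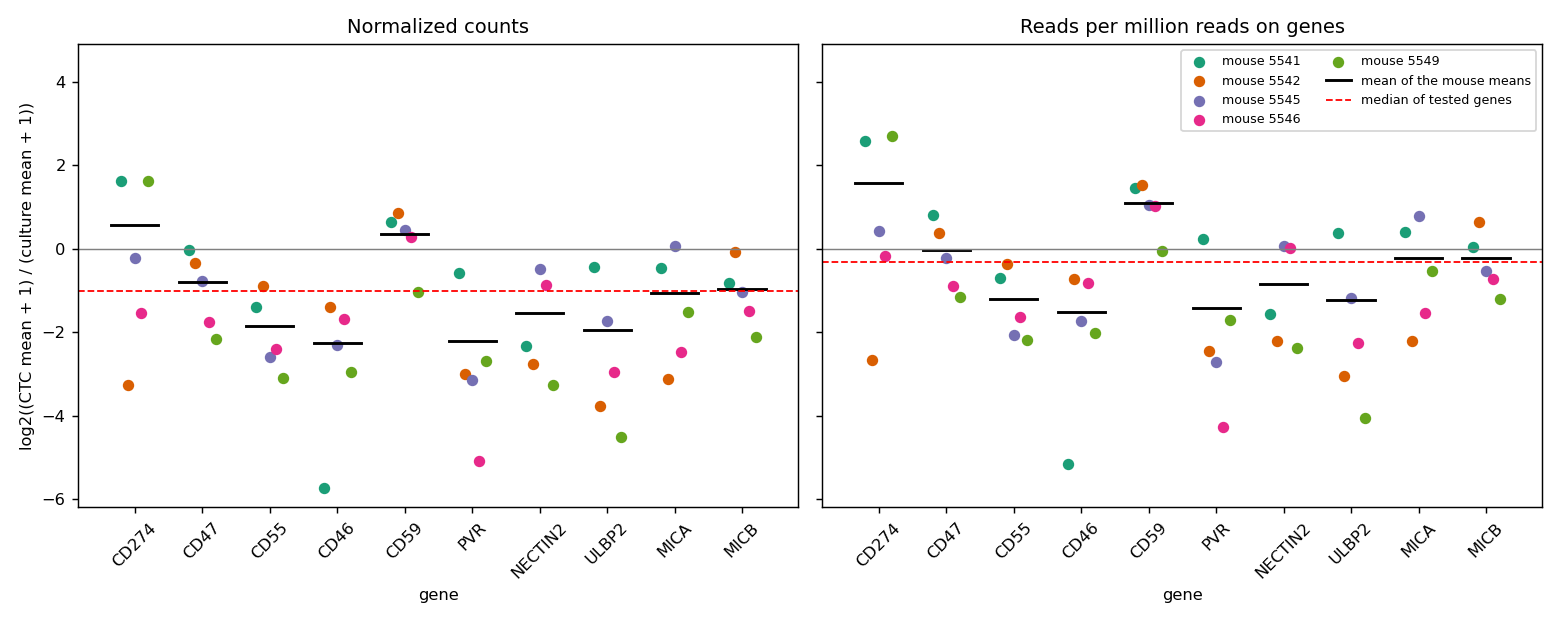
CTCs against culture. The vertical axis is the log2 ratio of means after 1 was added to both, in normalized counts at the left and in RPM at the right; points are mice, bars the mean of the mouse means, and the dashed line the median of 10455 genes, -1.02 and -0.32. CD55 and CD46 were below 0 in all 5 mice on both scales; for CD47, MICA, MICB, NECTIN2, PVR and ULBP2 at least 1 mouse was above 0 at the right.

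Reads summed per mouse were also tested against the summed culture with the quasi-likelihood test of edgeR, on the assumption that the spread between mice also holds for the culture. No gene of 13813 passed at an adjusted p under 0.05 in either direction, 0% of genes, and none of the 10 did, while 241 genes and 1 of the 10 had an unadjusted p under 0.05. This was CD59, with a log2 change of 1.69, an SE of 0.66, an unadjusted p of 0.0247 and an adjusted p of 1.00 in edgeR. On this scale, where the median gene was at 0.31, CD47, MICA and MICB were also above 0, at 0.58, 0.46 and 0.30, and thus turned their sign. Without a filter on low counts edgeR passed 27 of 25739 genes, 0.105%, and DESeq2 passed 14 of 11740 genes, 0.119%, with none of the 10 among either.

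Other genes of the same pathways were taken from lists. Of 22 checkpoint and phagocytosis genes 15 had values, 12 could be judged by the rule of size, and none met it. NT5E, which makes adenosine, and CMTM6, which keeps PD-L1 from degradation, had the highest means of this list over the 37 CTCs, 289 and 141 normalized counts, without regard to length. By the mean of the mouse means CALR, calreticulin, exceeded CMTM6 with 200 ± 170 (SD, n = 5), against 501 in culture. NT5E had reads in 36 of 37 CTCs with a mean of the mouse means of 265 ± 130 (SD, n = 5) against 239 in culture, and CMTM6 in 35 with 129 ± 37.02 against 216. CMTM6 was thus found in nearly all CTCs, and CD274 in 10. Over the 12 genes, 6 had all mouse means below culture in normalized counts and 2 in RPM, against 52.9% and 30.8% of all genes.

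Among other complement genes, C3, the central component, was lower in CTCs by the rule, as were 4.66% of all 10455 genes. The mean of the mouse means of C3 was 0.116 ± 0.260 (SD, n = 5) against 13.7 in culture. Its log2 ratio was -3.72 ± 0.30 (SD over 5 mice) in normalized counts and -3.04 in RPM. C3 had reads in 1 of 37 CTCs and in 3 of 6 cultured cells. The highest mean normalized counts of the complement list were those of C1QBP, the receptor for the globular heads of C1q, with 415 ± 238 against 1095 in culture, and CLU, clusterin, with 19.8 ± 10.2 against 44.8. None of these 3 genes was called by edgeR.

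The GPI anchor that holds CD55, CD59 and ULBP2 is made by the PIG enzymes. All 17 genes of that list had values, 16 could be judged and none met the rule. PIGT had 177 ± 34.6 against 401 in culture and GPAA1 69.6 ± 20.4 against 228, both of them subunits of the transamidase that attaches the anchor. The median log2 ratio of the list was -1.45 in normalized counts and -0.80 in RPM, beside -1.02 and -0.32 for all genes. PIGA, which starts the pathway, had reads in 9 of 37 CTCs and 4 of 6 cultured cells.

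Of 23 other genes that NK cells read or that shed their ligands 20 had values and 15 could be judged. By the rule 1 of the 15 was lower, beside 4.66% of all 10455 genes, so the list was not singled out by it. ICAM1, the ligand of LFA-1, had a mean of the mouse means of 1.94 ± 3.47 (SD, n = 5) against 54.9 in culture, with reads in 5 of 37 CTCs and 4 of 6 cultured cells. Its log2 ratio was -4.25 ± 1.33 in normalized counts and -3.70 in RPM. HLA-E, which engages the inhibitory receptor NKG2A, and CD58, which engages CD2, had the highest mean normalized counts, with 541 ± 313 against 358 and 216 ± 115 against 230. The median log2 ratio of this list was -0.09 in normalized counts and 0.65 in RPM, above that of all genes on both scales. None of the genes of the 4 lists was called by edgeR.

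Some reads of these genes cannot be told from those of others. In windows of 75 bases of their transcripts, ULBP2 shared 20.8% with another gene, of which 18.8% with its paralog RAET1L, and PVR shared 18.1%, mostly with an overlapping gene on the same strand. CD59 shared 5.04% with a readthrough gene and CD46 4.36%, mostly with MIR29B2CHG on the opposite strand, which the counting did not separate. MICA and MICB shared no window with each other, and CD274, CD47 and CD55 shared none with any gene.

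Reads of blood cell genes were found in the CTC libraries. The 4 measured genes of the erythroid list (HBB, HBA2, HBD and ALAS2) had reads in 36 of 37 CTCs, with a summed normalized count from 0 to 15558 and a median of 1289, and 0 in all 6 cultured cells. The neutrophil list (S100A9, CSF3R and FCGR3B) had reads in 30 CTCs, summing to between 0 and 571, and the leukocyte list (PTPRC, CD14 and LYZ) in 22, summing to between 0 and 419, with PTPRC in 11. The platelet list had reads in 8 CTCs and the NK cell list in 5. In culture the leukocyte sum reached 7.96 and the neutrophil and NK cell sums were 0. The summed erythroid count had a Spearman correlation over CTCs of -0.53 with PVR and -0.45 with MICA, and between -0.31 and 0.25 with the other 8 genes. For the neutrophil sum it was -0.51 with PVR and -0.38 with MICA, and between -0.32 and 0.20 with the other 8. For the leukocyte sum it was -0.26 with PVR and -0.08 with MICA. The reads were aligned to the human genome alone, and the part of blood cell RNA in the values of the 10 genes was not tested.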

How the data were processed

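Single-cell RNA-seq of 37 CTCs of 5 mice and 6 cultured LM2 cells was used, with mice taken from the cell labels. The deposited values are a signal, the reads of each gene divided by a DESeq2 1.42.1 size factor of the cell. Per the labels and the paper's methods, the authors aligned reads with STAR 2.7.10a to GRCh38 with GENCODE 38, kept uniquely mapped reads, counted without strand, and left out 4 CTCs, which were not analysed here. Their alignment used no mouse genome.

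Within a cell, 100% of the values above 0 were whole multiples of the lowest of them (tolerance 0.001). The whole reads recovered in this way served for depth, reads per 1000000 reads on genes (RPM), thinning to 469614 reads, the share of each complement regulator, and edgeR 4.0.16 (TMM scaling, genes with low counts filtered) on reads summed per mouse, with Benjamini-Hochberg adjustment over all genes tested. edgeR passed 0 genes. DESeq2 1.42.0 was an alternative. Symbols were matched for 25565 of 25739 gene identifiers. Coordinates, exon lengths and shared 75-base windows came from GENCODE 44 on GRCh38.

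A gene is named when it is 1 of the 10 genes followed, a listed gene that met the rule of size or was called by edgeR, 1 of the 2 highest of a list, or 1 of the 3 most like CD274 or CD47 by Spearman correlation. Genes of the cell type lists were named as well, and PIGA and CALR after their values were seen. A result of the complement list is not reported here. These genes and the lists were chosen with earlier results of these data known. Calculations used Python 3.11.15, numpy 2.4.6, pandas 2.3.3, scipy 1.17.1 and R 4.3.3, and the tests across genes were checked on simulated data. Where nothing says that cells of a group came from separate cultures, their spread may be technical.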

Additional observations from a re-analysis of the deposited data

Results flagged for a closer look

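In 7 of 48 groups examined, that is each gene in each mouse with 4 or 10 CTCs, in the cultured cells or over the 5 mouse means, 1 sample lay far from the others on the scale of log2(normalized count + 1). The cutoff flags about 1 group in 20 by chance only for normally distributed values. Many groups here hold zeros, and a group of 4 with a single value above 0 is always flagged. The 7 of 48 therefore cannot be set against that rate. CD274 was 114.5 in 5549-2 and 0 in the other 3 CTCs of mouse 5549, and ULBP2 was 2.77 in 5542-2 and 0 in the other 3 CTCs of mouse 5542. CD47 was 445 in 5542-8, where the next CTC of the mouse had 142.8. In mouse 5545, cell 5545-6 was lowest for 3 genes, with 0.587 for CD47 where the next had 23.3, 0 for NECTIN2 where the next had 16.8, and 0 for MICA where the next had 16.5. This cell had 2227 genes detected, the fewest of all CTCs, and a CD59 value of 1215 within the range of its mouse. Among the cultured cells, PVR was 0 in LM-10 and 32.6 or more in the other 5.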

How the results depend on the processing

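No paired analysis was possible because the numbers in the library names count cells within a mouse or culture and join no CTC to a cultured cell. The count of the 10 genes lower in CTCs by the rule of size, 0, became 1 with a 2-fold difference (CD46). With that difference 2298 of all 10455 genes were lower, so CD46 was not singled out by it. The count of the 10 genes lower was 0 to 1 without each mouse in turn (PVR without mouse 5541). It was 0 with 0.1 or 8 added, with medians, with no minimum mean, with thinned reads, in RPM (chosen after seeing the data) and without each cultured cell, as was the count higher in every one of these settings. None of the 10 was called by edgeR with another scaling, no filter, without any 1 mouse, or by DESeq2. The median share of CTCs with detection fell from 77.0% to 62.2% at a normalized count of at least 8. Without mouse 5541, 5542, 5545, 5546 or 5549, the full set of CD47 and complement regulators was found in 24 of 35, 22 of 33, 17 of 27, 14 of 20 and 23 of 33 CTCs. CTCs without any NK ligand were 1 to 2 without each mouse in turn, 4 at a count of at least 8 and 1 without CTCs under 5000 genes. The order per length kept 4 places with medians and 3 with the longest transcript. The CD59 share of the trio was 93.2% to 94.6% without each mouse in turn and 89.9% per kb. Of 170 other values of single log2 ratios, 168 stayed within 1 SD over mice and 2 changed sign, CD47 to 0.08 with thinned reads and CD274 to -0.16 over all CTCs. That SD is wide for some genes, 2.11 for CD274. The 170 do not include the log2 changes of edgeR and DESeq2, where CD47, MICA and MICB were above 0. Of 80 other shares of CTCs, 76 stayed within 1 SD. Genes with few reads per cell, such as CD274 and ULBP2, are limited by depth: where detected, CD274 had a median of 13.5 reads and ULBP2 of 9.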
